A study of Mus musculus with 32 samples.

Results

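Otx1, Otx2, Gbx1 and Gbx2 were described across all libraries of a retinal organoid time course. They are the 4 rows of 55492 in the deposited gene table whose symbols are those of the mouse Otx and Gbx homeobox genes. They were picked by name, with earlier results of these data known. Poly(A) RNA was sequenced from mouse embryonic stem cells at day 0 and from retinal organoids grown from them at days 2, 4 and 6, in 4 kinds of culture with 2 libraries per group, which gave 16 groups and 32 libraries. WT was the Rx:GFP line, named for a GFP reporter of Rx (Rax), a gene of the eye field. The cultures labelled KO were Mettl3 KO cells, which target the methyltransferase subunit that deposits N6-methyladenosine on RNA. The other cultures overexpressed WT METTL3 fused to a domain named GRBD in the Mettl3 KO background, and per the labels the fusion stayed in the cytosol unless dexamethasone (Dex) brought it into the nucleus. All organoids at days 2, 4 and 6 were labelled as treated with AGN, at 0.1 µM in the medium. Dex was given at 10 µM, and the protocol lists it for 2, 4 and 6 days, while a group of day 0 stem cells is also labelled as Dex treated and was used as labelled. No WT or KO culture was given Dex, so effects of Dex itself and of the fusion entering the nucleus cannot be told apart. How many clones each line stands for and whether duplicates were separate cultures are not stated, so the p-values measure only the spread between these libraries.

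Otx and Gbx genes encode homeodomain transcription factors that divide the neural plate along its length. Otx2, with Otx1, marks and maintains the forebrain and midbrain territory, whereas Gbx2 marks the anterior hindbrain, and the border between them, kept by mutual repression, sets the position of the isthmic organizer at the midbrain-hindbrain boundary. Before that, Gbx2 is expressed in naive embryonic stem cells under LIF and STAT3 signalling, and Otx2 rises as they leave that state. Otx2 is later needed for the retinal pigment epithelium and photoreceptors.

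The homeobox of each gene is shown because it carries what separates the Otx from the Gbx proteins in DNA recognition: the capitals mark codon 50, in the recognition helix, which is AAG (lysine) in both Otx genes and CAG (glutamine) in both Gbx genes. The sequences were read from GENCODE M21 transcripts of GRCm38, 5′ to 3′ on the coding strand, and all 4 genes lie on the minus strand.
Otx1 homeobox (chr11:21998370-21998507 in exon 4 and chr11:21997017-21997058 in exon 5): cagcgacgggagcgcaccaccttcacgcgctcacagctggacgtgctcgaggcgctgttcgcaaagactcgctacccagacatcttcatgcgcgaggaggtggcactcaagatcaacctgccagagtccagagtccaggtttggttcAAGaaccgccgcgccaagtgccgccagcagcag
Otx2 homeobox (chr14:48661299-48661436 in exon 5 and chr14:48659285-48659326 in exon 6): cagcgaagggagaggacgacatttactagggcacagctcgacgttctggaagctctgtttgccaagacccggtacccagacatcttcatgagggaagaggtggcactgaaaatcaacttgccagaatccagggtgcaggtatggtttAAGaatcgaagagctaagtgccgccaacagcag
Gbx1 homeobox (chr5:24504721-24504900 in exon 2): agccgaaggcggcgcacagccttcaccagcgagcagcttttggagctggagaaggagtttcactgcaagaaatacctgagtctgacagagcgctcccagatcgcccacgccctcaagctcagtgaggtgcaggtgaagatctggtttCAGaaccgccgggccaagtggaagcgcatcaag
Gbx2 homeobox (chr1:89928749-89928928 in exon 2): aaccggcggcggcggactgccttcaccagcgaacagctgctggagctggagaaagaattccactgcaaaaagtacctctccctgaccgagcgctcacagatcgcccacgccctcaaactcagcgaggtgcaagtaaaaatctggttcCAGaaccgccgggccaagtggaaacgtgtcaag

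Over the 180 bases of the homeobox, Otx1 and Otx2 were identical at 144 bases and Gbx1 and Gbx2 at 152, whereas an Otx and a Gbx gene shared between 46.7% and 53.9%. The Otx homeoboxes are split by an intron and the Gbx homeoboxes lie in a single exon. Along their longest coding transcripts the longest identical run was 18 bases between Otx1 and Otx2 and 38 bases between Gbx1 and Gbx2. The pentamer GGACT, a frequent core of the sites that METTL3 methylates, was counted on the sense strand of the same transcripts. It occurred 3 times in Otx1, 3 in Otx2, 5 in Gbx1 and 3 in Gbx2, or between 1.08 and 1.44 times per kilobase, beside a median of 1.02 over 45117 coding transcripts. Methylation itself was not measured in these libraries.

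The whole genes span chr11:21994764-22002897 (Otx1, ENSMUSG00000005917), chr14:48657677-48673819 (Otx2, ENSMUSG00000021848), chr5:24502757-24527202 (Gbx1, ENSMUSG00000067724) and chr1:89927956-89931179 (Gbx2, ENSMUSG00000034486). Gbx2 shares 946 exon bases with D130058E05Rik, an antisense transcript on the plus strand. Otx2 shares 154 exon bases with the antisense Otx2os1, listed at no more than 1.96 FPKM, and 168 with Gm49154 on its own strand, listed at no more than 0.15. Whether counting used strand is not given in the sources used here, so reads of these shared bases cannot be assigned to one gene.

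Levels are FPKM, fragments scaled to transcript length and library depth. Estimated depth ran from 28840000 to 55340000 fragments per library, and over genes the Pearson r of duplicates was 0.9922 to 0.9956. Mettl3 RNA in the libraries labelled KO averaged 43.4, 39.9, 36.6 and 37.6 FPKM at days 0, 2, 4 and 6 beside 35.0, 40.7, 33.5 and 35.7 in WT. KO was called higher at day 0 (difference 0.30, limma adjusted p = 0.000417), and at day 2 it was slightly below WT (-0.030, adjusted p = 0.713). Mettl3 ran from 44.5 to 75.1 in the fusion cultures. The labels do not say which part of the gene was deleted, so this gene-level value does not check the genotype. The stem cell markers Pou5f1, Nanog, Zfp42, Esrrb and Klf4 summed to between 1697 and 1952 FPKM in the day 0 libraries and to at most 75.8 at day 6. The eye field markers Rax, Six3, Six6 and Lhx2 summed to 538 and 570 FPKM in WT at day 6 and to 5.58 and 6.27 in the libraries labelled KO. Changes below are differences in log2(FPKM + 1), which understate the change of low genes, and a gene was called at an adjusted p under 0.05 from limma with Benjamini-Hochberg adjustment over 16276 tested genes. Otx1, Otx2 and Gbx2 were tested. Otx1 and Gbx2 passed the filter on low values only through the days at which they are high, and Gbx1 did not pass it.

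Otx2, the earliest of the anterior genes, was already present in stem cells and rose in every line between days 0 and 2. In WT the 2 libraries measured 18.2 and 16.5 FPKM at day 0, 134 and 131 at day 2, 193 and 199 at day 4, and 105 and 104 at day 6. In the cultures labelled KO they measured 19.0 and 19.2 at day 0, 130 and 129 at day 2, 200.3 and 203 at day 4, and 203 and 204 at day 6. WT therefore ended below its own day 2 level, and the cultures labelled KO stayed near their day 4 level. The fusion cultures without Dex measured 18.3 and 18.0, then 145 and 143, then 204 and 202, then 166 and 170.2. With Dex they measured 21.5 and 21.5, then 133 and 135, then 223 and 218, then 138 and 137. At day 6 the 4 lines did not overlap and ran in the order WT, fusion with Dex, fusion without Dex, KO, whereas at days 0, 2 and 4 the largest difference tested between lines was 0.30 on the log2 scale.

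Between days 0 and 2 Otx2 rose by 2.58 to 2.92 on the log2 scale, an FPKM ratio of 6.22 in the Dex cultures and 7.94 in those without it. These comparisons called 63.4% of all tested genes for WT and 65.6% for KO, 67.9% for the fusion lacking Dex and 60.6% for that given it, and all 3 tested members in each line. From day 4 to day 6 Otx2 fell by 0.90 in WT (SE 0.03, limma adjusted p = 1.44e-15), by 0.27 in the fusion cultures without Dex (SE 0.03, adjusted p = 7.37e-08) and by 0.68 with Dex (SE 0.03, adjusted p = 1.02e-13), and the difference in the cultures labelled KO was 0.01 (SE 0.03, adjusted p = 0.778). The KO and WT courses differed in this step by 0.91 (SE 0.04, limma adjusted p = 1.21e-12), and the courses with and without Dex by -0.40 (SE 0.04, adjusted p = 2.03e-07). Both of these interaction tests were added after the values were seen, and they called 48% and 41.2% of tested genes.

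Otx1, the partner gene that comes on later in the anterior neural plate, was near the counting floor in stem cells and rose in each line at every step. In WT the libraries measured 0.10 and 0.11 FPKM at day 0, 0.21 and 0.21 at day 2, 1.10 and 1.17 at day 4, and 8.83 and 8.48 at day 6. In those labelled KO they measured 0.05 and 0.11, then 0.34 and 0.34, then 3.72 and 3.67, then 60.6 and 61.7. The WT libraries were the lowest of the 4 lines at days 4 and 6, with no overlap. The fusion cultures without Dex measured 0.09 and 0.04, then 0.28 and 0.29, then 5.34 and 5.74, then 43.6 and 43.5. With Dex they measured 0.08 and 0.09, then 0.22 and 0.18, then 21.8 and 20.8, then 42.7 and 43.5. By day 4 the rise was thus largest in the cultures with Dex, which were the highest of the 4 lines on that day but not at day 2. At day 6 the fusion cultures with and without Dex overlapped.

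In the Dex cultures the step from day 2 to day 4 was 4.21 (SE 0.04, limma adjusted p = 4.14e-23), an FPKM ratio of 106, and the step from day 4 to day 6 was 0.99. In WT these steps were 0.82 and 2.18, and in the cultures labelled KO 1.81 and 3.73. All 12 day-to-day steps of Otx1 were called, and the day 0 to day 2 steps were small, between 0.13 and 0.31; that of WT was not called without WT day 0 replicate 1 and that with Dex without Dex day 2 replicate 1. From day 2 to day 4, 59.9% of genes were called for WT and 64.2% for KO, 60.8% for the fusion lacking Dex and 66.7% for that given it, and from day 4 to day 6 the shares were 66.7%, 65.3%, 67.9% and 65.1%. Per length, Otx1 stayed below Otx2 in every group, with a log2 ratio of Otx1 to Otx2 of -3.45 in WT at day 6 and of -1.72, -1.92 and -1.65 in the cultures labelled KO and in those without and with Dex.

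**Figure D1:**
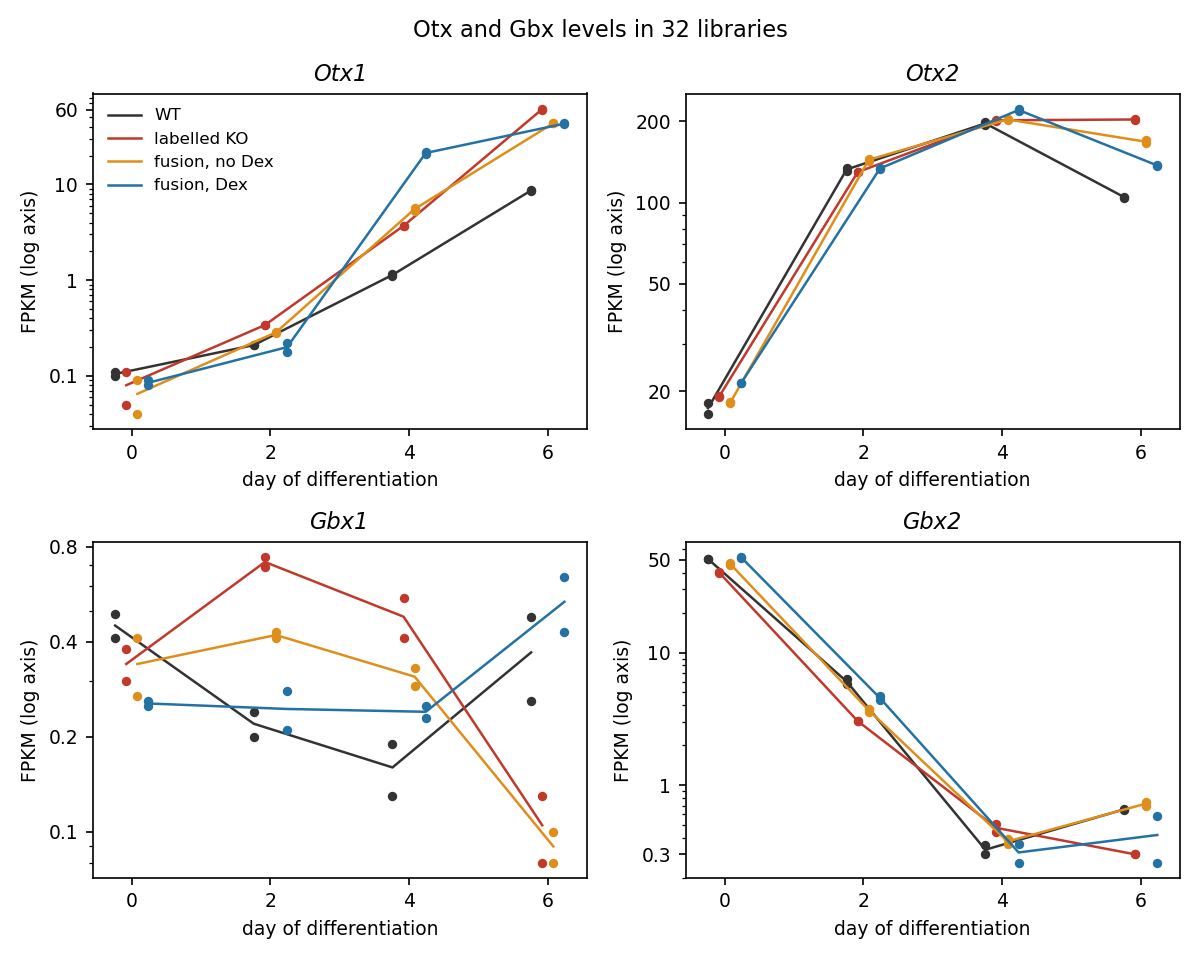
FPKM of Otx1, Otx2, Gbx1 and Gbx2 (log axis, different range in each panel) against day of differentiation; points are single libraries, lines join the means of 2 libraries, and points of the 4 lines are shifted sideways for legibility. Otx2 rose and Gbx2 fell in all lines by day 2, WT had the lowest Otx1 and Otx2 at day 6, and Gbx1 stayed under 1 FPKM in all 32 libraries.

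Gbx2, the posterior gene and a naive stem cell gene, was the highest of the 4 genes at day 0 and nearly gone by day 4. In WT the libraries measured 51.0 and 50.6 FPKM at day 0, 5.76 and 6.33 at day 2, 0.30 and 0.35 at day 4, and 0.66 and 0.65 at day 6. In those labelled KO they measured 39.9 and 40.5, then 3.05 and 3.02, then 0.51 and 0.44, then 0.30 and 0.30. The libraries labelled KO were thus the lowest of the 4 lines at days 0 and 2, without overlap. The fusion cultures without Dex measured 47.2 and 46.1, then 3.56 and 3.76, then 0.39 and 0.36, then 0.75 and 0.70. With Dex they measured 52.4 and 52.0, then 4.37 and 4.70, then 0.26 and 0.36, then 0.26 and 0.58. At days 4 and 6 all 16 libraries were under 1 FPKM, which at the estimated depth corresponds to between 16 and 52 fragments per library, and the 2 Dex libraries of day 6 lay further apart than any other pair at those days.

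Gbx2 fell between days 0 and 2 by 2.88 in WT, an FPKM ratio of day 0 to day 2 of 8.41, with differences from -3.35 to -3.27 in the other lines, and its differences between days 2 and 4 ran from -2.41 to -1.45. The antisense D130058E05Rik, whose exons overlap Gbx2, followed the same course in WT, at 17.7 and 18.2 FPKM at day 0, 4.08 and 3.79 at day 2, 0.46 and 0.47 at day 4, and 0.85 and 1.09 at day 6. From day 4 to day 6 Gbx2 rose by 0.32 in WT (SE 0.07, limma adjusted p = 0.000569) and by 0.33 in the fusion cultures without Dex (SE 0.07, adjusted p = 0.000462), and it fell by 0.18 in those labelled KO (SE 0.07, adjusted p = 0.032), a call lost without the filter on low values (adjusted p = 0.0544) and when KO day 4 replicate 1 (-0.15) or either day 6 library was left out. With Dex this step was 0.11 and was not called (SE 0.07, limma adjusted p = 0.196), and its sign rested on a single library. It was 0.27 without Dex day 6 replicate 1 and -0.055 without replicate 2. The highest library after day 2 held 0.75 FPKM.

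Gbx1, the other posterior gene, stayed between 0.08 and 0.74 FPKM in all 32 libraries, or an estimated 9 to 121 fragments. In WT the libraries measured 0.41 and 0.49 at day 0, 0.24 and 0.20 at day 2, 0.19 and 0.13 at day 4, and 0.48 and 0.26 at day 6. In those labelled KO they measured 0.38 and 0.30, then 0.69 and 0.74, then 0.41 and 0.55, then 0.13 and 0.08. The KO values were thus above WT at days 2 and 4 and below it at day 6, without overlap. The fusion cultures without Dex measured 0.27 and 0.41, then 0.43 and 0.41, then 0.29 and 0.33, then 0.08 and 0.10. With Dex they measured 0.25 and 0.26, then 0.21 and 0.28, then 0.23 and 0.25, then 0.43 and 0.64. At day 6, Gbx1 was lowest in the cultures labelled KO and the fusion cultures without Dex. A fit without the filter on low values gave a Gbx1 difference between KO and WT of 0.49 at day 2 (SE 0.07, limma adjusted p = 2.49e-05) and -0.31 at day 6 (adjusted p = 0.00223), and between Dex and no Dex of 0.49 at day 6 (adjusted p = 4.75e-05). Without the filter these 3 comparisons called 30.6%, 36.4% and 21.5% of 34331 genes.

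The balance of Otx2 against Gbx2 was read as the log2 ratio of FPKM + 1 in each library. It was negative in all 8 day 0 libraries, with group means from -1.50 in WT to -1.03 in the cultures labelled KO, and positive in all later ones. At day 2 WT had the lowest mean at 4.25, the fusion cultures 4.61 with Dex and 4.96 lacking it, and the cultures labelled KO 5.02, and at day 4 the means lay between 7.10 and 7.40. At day 6 the WT libraries both measured 6.00 and those labelled KO 7.29 and 7.30, while the fusion cultures measured 6.57 and 6.65 without Dex and 6.78 and 6.45 with it. The switch from Gbx2 to Otx2 thus took place in every line, and the lines differed in its extent. From day 4 on Gbx2 is so low that the ratio follows Otx2 and the added 1. With 0.1 added in place of 1, the day 6 means were 7.12 for WT and 8.99 for KO. They were 7.67 for the fusion lacking Dex and 8.12 for that given it. The fusion libraries still overlapped, at 7.61 and 7.73 without Dex and 8.58 and 7.65 with it.

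**Figure D2:**
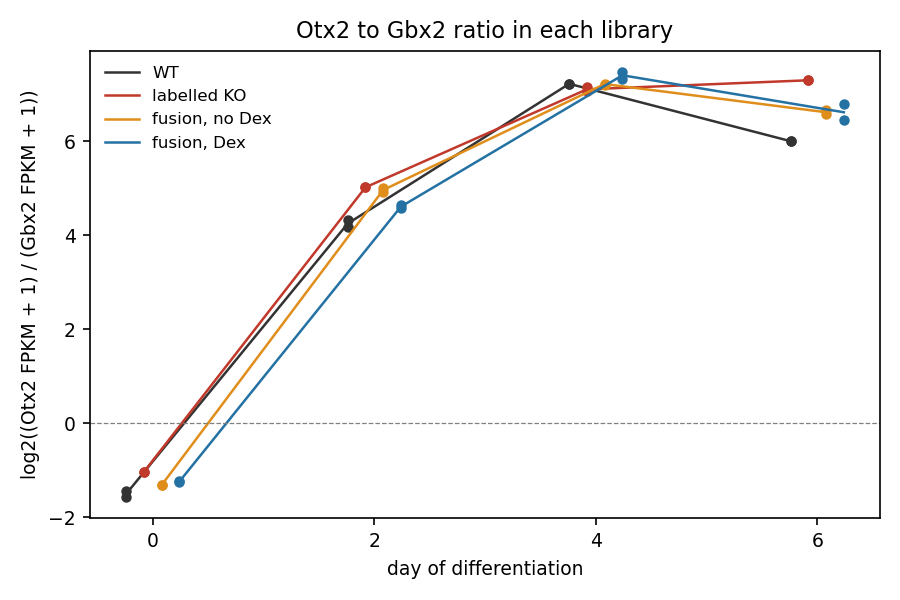
Log2 ratio of (Otx2 FPKM + 1) to (Gbx2 FPKM + 1) against day of differentiation; points are single libraries, lines join group means, points of the 4 lines are shifted sideways, and the dashed line marks equal levels. All 8 day 0 libraries lie below 0 and all others above it, and at day 6 WT is lowest at 6.00 and KO highest at 7.29.

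The first comparison set the cultures labelled KO against WT at each day. Otx1 differed most: the libraries labelled KO were higher than WT by 1.14 at day 4 (SE 0.04, limma adjusted p = 3.75e-14), an FPKM ratio of 3.26, and by 2.69 at day 6 (SE 0.04, adjusted p = 3.29e-20), a ratio of 7.06. Otx2 was higher by 0.95 at day 6 (SE 0.03, adjusted p = 6.30e-16), a ratio of 1.94, while its differences at days 2 and 4 were -0.03 and 0.04 and were not called; after median-of-ratios rescaling they were -0.14, which was called, and -0.066. At day 0 it was higher by 0.14, a call lost in a fit of these groups alone (adjusted p = 0.204); the value was 0.20 without WT day 0 replicate 1 and 0.071 without replicate 2. In the same comparison Otx1 was higher by 0.15 at day 2. Gbx2 differed by -0.33 at day 0 (SE 0.07, adjusted p = 0.000753; 0.131 with a pseudocount of 0.1) and by -0.80 at day 2 (SE 0.07, limma adjusted p = 1.16e-08), where WT held 1.99 times the KO level. At day 6 Gbx2 differed by -0.35 (adjusted p = 0.000267), with both lines under 1 FPKM. All 3 tested members were called at day 6, and 2 of 3 at days 0 and 2 and 1 of 3 at day 4, beside 65.1%, 48.2%, 58.9% and 60.5% of all tested genes. The antisense D130058E05Rik was lower too, with differences of -0.44 at day 0 (SE 0.09) and -0.65 at day 2 (SE 0.09) and limma adjusted p = 0.000617 and 7.01e-06. It was not called at day 4 (-0.041), and at day 6 it differed by -0.39 (SE 0.09, limma adjusted p = 0.00111). Its day 6 means were 0.97 FPKM in WT and 0.50 in KO, beside 0.655 and 0.30 for Gbx2. Whether antisense reads entered the Gbx2 differences was not tested.

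The fusion without Dex was compared with KO, which shares the KO libraries with the comparison above. At day 6 Otx1 differed from KO by -0.48 (SE 0.04, limma adjusted p = 1.87e-08) and Otx2 by -0.27 (SE 0.03, adjusted p = 1.92e-07), and Gbx2 was higher by 0.41 (SE 0.07, adjusted p = 8.62e-05). All 3 were called, beside 49% of tested genes. At day 4 Otx1 was instead higher than in KO by 0.48 (SE 0.04, adjusted p = 1.98e-07), and it was the only member of 3 called, beside 26.7% of genes. The members called at days 0 and 2, 2 of 3 at each beside 49.1% and 37%, were Otx2, at -0.07 and 0.15, and Gbx2, at 0.21 on both days. The Gbx2 calls were lost with a pseudocount of 0.1 (limma adjusted p = 0.351 at day 0 and 0.283 at day 2). They were also lost, as was that of Otx2 at day 0, when any 1 library of KO or of the fusion without Dex was left out at that day, and Otx2 turned to 0.041 after median-of-ratios rescaling.

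Against WT, whose libraries also serve the KO comparison, the fusion without Dex held more Otx1 at day 4, by 1.61 (SE 0.04, limma adjusted p = 6.23e-16), an FPKM ratio of 4.88, and at day 6, by 2.21 (SE 0.04, adjusted p = 1.18e-18), a ratio of 5.03. Otx2 was higher by 0.67 at day 6 (SE 0.03, adjusted p = 1.64e-13), a ratio of 1.60. Gbx2 differed by -0.60 at day 2 (SE 0.07, adjusted p = 1.35e-06), and Otx2 by 0.12 on that day, a call lost after median-of-ratios rescaling (0.043). At day 0 none of the 3 members was called by limma, beside 62.4% of tested genes, and 1 had an unadjusted p under 0.05. That was Otx2, at 0.065, which was called after median-of-ratios rescaling (0.19) and without WT day 0 replicate 1 (0.13). At days 2, 4 and 6 the members called numbered 2, 1 and 2, beside 46%, 51.9% and 62.8%.

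With Dex, the fusion cultures held more Otx1 at day 4 and less Otx2 at day 6 than without it. At day 4, Otx1 was higher with Dex by 1.77 (SE 0.04, limma adjusted p = 3.13e-16), an FPKM ratio of 3.84, and Otx2 by 0.12 (SE 0.03, adjusted p = 0.0034), beside 40.2% of tested genes called. At day 6 the Otx1 difference was -0.01 (SE 0.04, adjusted p = 0.835) and that of Otx2 was -0.29 (SE 0.03, adjusted p = 1.43e-07), beside 42.7% called. The Dex difference in Otx1 changed between days 4 and 6 by -1.78 (SE 0.06, limma adjusted p = 8.69e-14), in an interaction test added after the values were seen. Gbx2 differed by -0.29 at day 6 (SE 0.07, adjusted p = 0.00274), but this rested on 1 of the 2 Dex libraries: without Dex replicate 1, at 0.26 FPKM, the difference was -0.13 and the limma adjusted p 0.107. At day 2, Otx2 differed by -0.11 (limma adjusted p = 0.00555) and Gbx2 by 0.25 (adjusted p = 0.0083), 2 of 3 members beside 44.3% of genes. Neither held in every setting: Otx2 was at -0.0064 after median-of-ratios rescaling (adjusted p = 0.898) and Gbx2 was not called with a pseudocount of 0.1 (adjusted p = 0.189).

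At day 0 Otx2 was higher by 0.23 in the stem cells labelled as Dex treated than in those without Dex (SE 0.03, limma adjusted p = 2.43e-06), at an FPKM ratio of 1.18 and beside 43.4% of genes called. It was the only member of 3 called there. The protocol lists no Dex before differentiation, so whether these stem cells had received Dex cannot be told from the labels.

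Against the same WT libraries, the fusion cultures with Dex held more Otx1, by 3.38 at day 4 (SE 0.04, limma adjusted p = 1.84e-20), an FPKM ratio of 18.8, and by 2.19 at day 6 (SE 0.04, adjusted p = 2.66e-18), a ratio of 4.98. Otx2 was higher than WT by 0.30 at day 0, by 0.16 at day 4 and by 0.39 at day 6 (SE 0.03, adjusted p = 8.11e-10), a ratio of 1.31 beside the 1.94 of KO. Gbx2 differed from WT by -0.35 at day 2 (SE 0.07, adjusted p = 0.00102; 0.0986 with a pseudocount of 0.1), and by -0.23 at day 6, again lost without Dex replicate 1 (-0.067, adjusted p = 0.361). From day 0 to day 6 the members called numbered 1, 1, 2 and 3 of 3, beside 49.8%, 29.4%, 44.7% and 61.4% of genes. With Dex, Otx2 at day 6 thus stood between WT and the fusion without Dex, while the Otx1 libraries of both fusion cultures overlapped.

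Whether a difference between lines at a later day differed from that at day 0 was tested as an interaction. For KO against WT, 3, 3 and 2 of the 3 members were called at days 2, 4 and 6, beside 48.9%, 57.4% and 56.9% of tested genes. The Otx1 difference had grown by 2.72 at day 6 (SE 0.06, limma adjusted p = 1.62e-17) and that of Otx2 by 0.81 (SE 0.04, adjusted p = 3.58e-12). For Dex against no Dex, 1, 2 and 2 were called, beside 45%, 34.8% and 48.7%. For this pair the Otx1 difference had grown by 1.74 at day 4 (SE 0.06, limma adjusted p = 1.92e-13). At day 0 Otx1 was near the counting floor in every line. Its interactions with day 0 therefore largely repeated the later differences, 2.69 for KO against WT at day 6 and 1.77 for Dex at day 4.

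**Figure D3:**
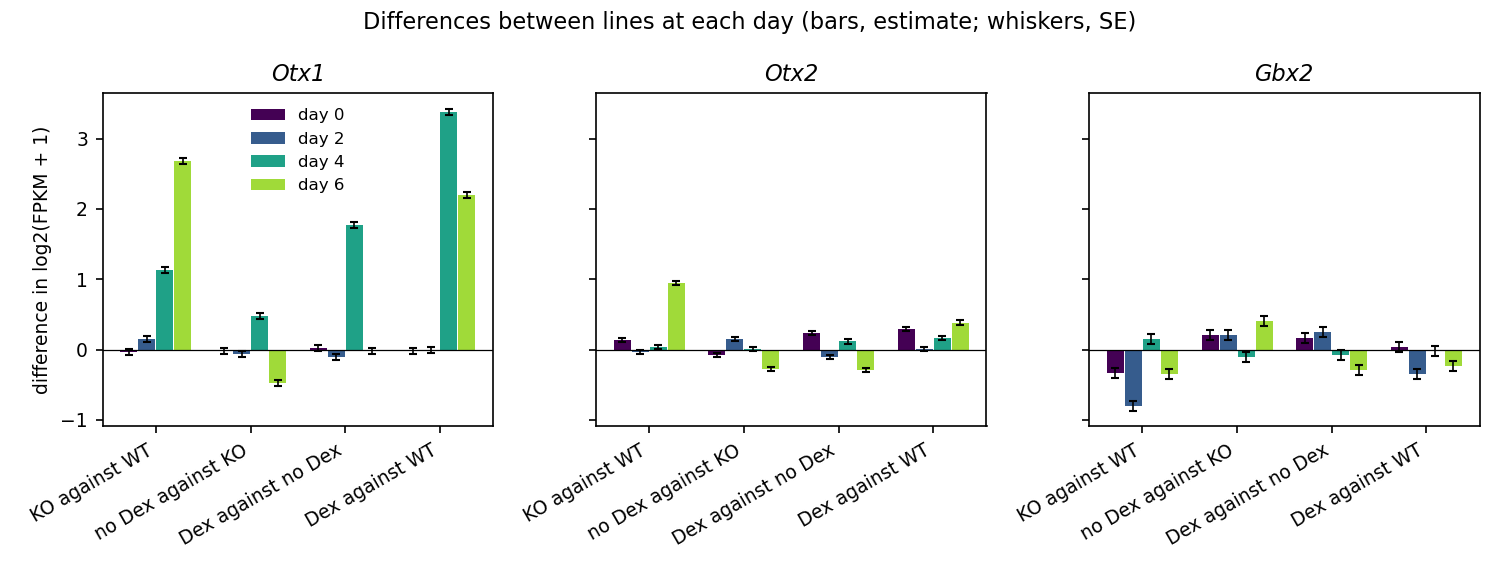
Differences in log2(FPKM + 1) of Otx1, Otx2 and Gbx2 between lines (bars) with their SE (whiskers) at days 0, 2, 4 and 6. Otx1 was 2.69 higher in KO than WT at day 6, and the Dex minus no Dex difference was 1.77 at day 4 but -0.01 at day 6, while Gbx2 was lowest in KO against WT at day 2, at -0.80.

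Genes with the most similar courses were named by the Pearson correlation of log2(FPKM + 1) over the 16 group means, as a description over points that share lines and days. The ranking left out the members and genes whose symbols end in Rik or are Gm followed by digits. Otx1 was nearest to Cxcr4 (0.988), a chemokine receptor, Hes5 (0.983), a Notch target of neural progenitors, and Gpr153 (0.982). Otx2 was nearest to Btbd17 (0.984), Bnip3 (0.980) and Tspan5 (0.979). Among the genes ranked, Gbx2 was nearest to Cphx2 (0.994), Acsbg3 (0.992) and Fam25c (0.991). The antisense D130058E05Rik, whose exons overlap Gbx2, was not ranked. Gbx1, with low and noisy values, reached no more than 0.818, with Npepl1. Among the members, Otx2 and Gbx2 ran opposite to each other, at -0.95, and Otx1 and Otx2 correlated at only 0.56.

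Genes that mark regions around the Otx and Gbx territories were read at day 6 from lists, which were chosen with earlier results of these data known. In KO against WT, where 34.2% of tested genes were called lower and 30.9% higher, all 9 tested forebrain genes of 10 listed fell, with a median of -3.65 beside -0.03 over all tested genes, among them Six3 (-6.34) and Lhx2 (-5.30), transcription factors of the anterior neural plate and eye field. Of 7 eye field genes 5 fell, led by Rax (-6.52), Six6 (-6.11) and Vax2 (-5.18), and 1 rose. Of 12 genes of the diencephalon and dorsal midbrain, which lie within the Otx territory, 10 rose and 2 fell, with a median of 3.37, led by Irx1 (5.63), Dmbx1 (5.33) and Irx2 (5.14). The day 6 cultures labelled KO were therefore high in Otx1 and Otx2 together with these genes and low in the forebrain and eye field genes.

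Of the 11 genes of the midbrain and isthmus, the organizer at the Otx-Gbx border, 3 rose and 6 fell in KO. Wnt1, the Wnt ligand of the caudal midbrain edge, rose by 4.59, from 1.60 and 1.36 FPKM to 58.0 and 59.4, and Lmx1b rose by 1.31. Pax2, which marks both the isthmus and the optic stalk, fell by 4.88, and Fgf8, the isthmic signal, fell by 0.43. Only 5 of 12 hindbrain genes were tested, since the others stayed under the filter, and 2 rose and 3 fell, among them Fgf3 (-0.98). All 8 tested Wnt target genes rose, among them Axin2 (3.05), and all 8 FGF feedback genes fell, among them Il17rd (-1.55). Crx, the Otx relative that acts with Otx2 in photoreceptors, rose by 0.95 but only to 1.13 and 1.36 FPKM, and 3 of the 5 listed Otx-related homeobox genes fell. Of the other lists in this comparison, 1 naive stem cell gene of 14 rose and 12 fell, 2 formative genes of 10 rose and 5 fell, and 1 of 5 tested pigment epithelium genes rose and 4 fell. Of 3 tested photoreceptor and neural retina genes 1 rose and 1 fell, and of 2 tested caudal genes 1 rose. Klf2 and Zfp42 of the naive list, Irx3 of the diencephalon and dorsal midbrain list, Dusp4 of the FGF feedback list and Nkd1 of the Wnt target list lie on chromosome 8, whose genes had a median difference 0.40 above the other chromosomes in this comparison. In KO against WT at days 0, 2 and 4 that value was 0.049, 0.16 and 0.28. None of the members lies on chromosome 8.

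With Dex at day 6, where 23.8% of tested genes were called higher and 19% lower, 6 of 9 forebrain genes rose, among them Lhx2 (3.09) and Six3 (2.03), and 5 of 7 eye field genes rose, led by Rax (4.87). Of the 12 diencephalon and dorsal midbrain genes 11 fell, led by Pax3 (-2.09), and of the 11 midbrain and isthmus genes 7 fell and 1 rose, Fgf8 by -1.65 and Pax2 by 1.82. All 5 tested pigment epithelium genes of 9 listed, a program that depends on Otx2 and Mitf, rose with Dex. Trpm1 rose by 4.90, Pmel by 4.70 and Dct by 3.98, and Otx2 differed by -0.29. Against WT, where 61.4% of tested genes were called, all 5 were called higher with Dex too (median 1.90). Otx2 was higher by 0.39 there, and its part in these changes was not tested. In that comparison 11 of the 12 diencephalon and dorsal midbrain genes were still called higher with Dex than in WT, and 1 lower. Of the 7 eye field genes 5 were called lower than WT and 2 higher. Forebrain genes were called lower for 5 and higher for 4 of 9, and midbrain and isthmus genes lower for 8 and higher for 2 of 11. With against without Dex, 7 of the 8 FGF feedback genes fell, with a median of -0.38, and they had fallen in KO against WT too. Of the 8 Wnt target genes 5 fell. Several other lists were mixed: 4 naive genes rose and 3 fell, 2 formative genes rose and 5 fell, 2 Otx-related homeobox genes rose and 1 fell, and 2 hindbrain genes rose and 1 fell. Among 11 extraembryonic endoderm genes 7 rose and 1 fell, and among 7 genes of the neural crest and its border 2 rose and 4 fell. Of 6 preplacodal genes 3 rose and 0 fell, and of 6 tested retinoic acid genes 2 rose and 0 fell. In the anterior visceral endoderm list 1 of 3 tested genes rose, and in the mesendoderm list 1 of 2. Of 3 tested photoreceptor and neural retina genes 1 rose and 1 fell, and neither of the 2 tested caudal genes was called. The median over all tested genes was 0.01 in this comparison. At day 4, where Otx1 had risen with Dex, all 9 forebrain genes rose, with a median of 1.82, beside 18.3% of tested genes called higher and 40.2% called in either direction. On that day 4 of 7 eye field genes rose and 0 fell. Diencephalon and dorsal midbrain genes rose for 3 and fell for 7 of 12, and midbrain and isthmus genes rose for 2 and fell for 4 of 11.

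**Figure D4:**
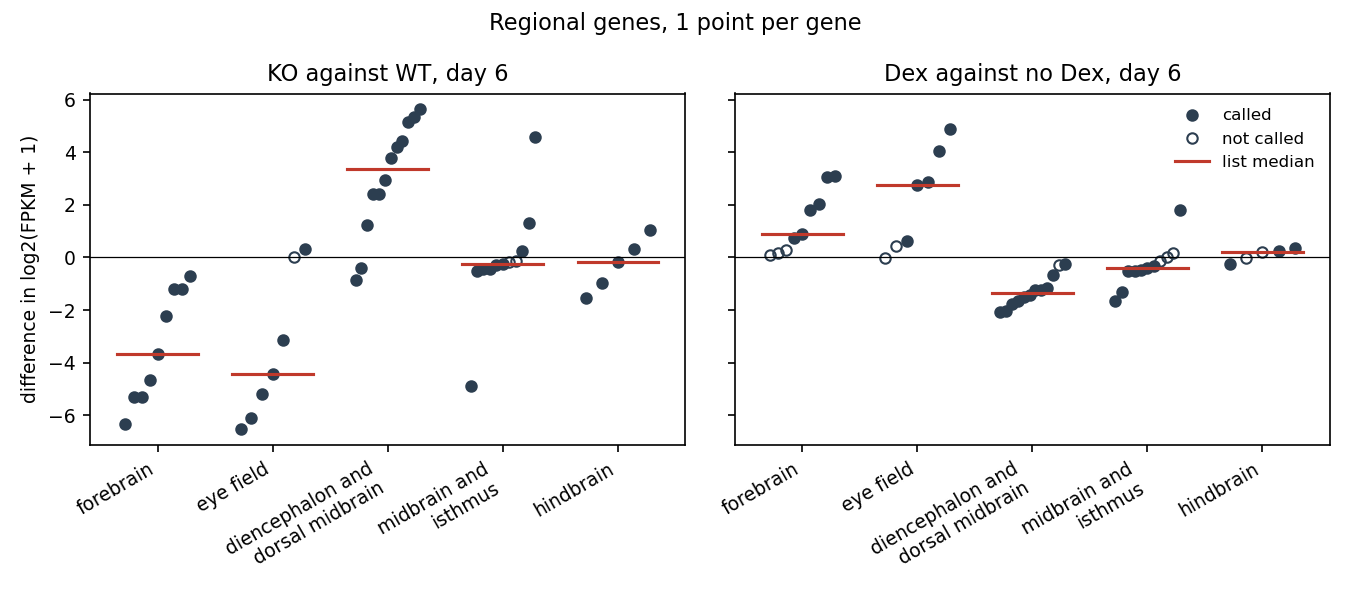
Differences in log2(FPKM + 1) of single regional genes (1 point per tested gene, filled where called, open where not) at day 6 for KO against WT (left) and Dex against no Dex (right); red lines are list medians. The forebrain median is -3.65 in KO against WT and that of the diencephalon and dorsal midbrain 3.37, and with Dex the latter is -1.34.

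Markers of other cell types differed between the lines too. The 7 extraembryonic endoderm markers, a tissue that also expresses Otx2, summed to 47.6 and 48.2 FPKM in WT at day 6, to between 0.59 and 0.88 in the libraries of KO and of the fusion cultures lacking Dex, and to 4.94 and 5.36 with Dex. Afp was at 0 in both libraries of each of these 3 groups and Ttr in none of them. The endoderm sums already differed in the day 0 stem cells, at 16.4 and 16.9 in WT and 2.36 and 2.88 in KO. They were 3.08 and 3.10 in the fusion lacking Dex and 4.35 and 4.75 in that labelled with it. The 3 neural crest markers, Sox10, Foxd3 and Tfap2a, summed to 2.09 and 2.09 in WT, 27.8 and 28.8 in those labelled KO, 30.8 and 31.9 in the fusion lacking Dex and 14.6 and 14.8 in that given it, and none was at 0. The 3 preplacodal markers summed to 5.79 and 5.82 in WT, 2.55 and 2.76 in KO, 3.86 and 4.27 in the fusion lacking Dex and 4.92 and 4.96 in that given it. Wider gene lists were also counted in KO against WT at day 6, where 34.2% of tested genes were called lower and 30.9% higher. All 11 extraembryonic endoderm genes fell, and all 3 tested anterior visceral endoderm genes fell (median -1.06). Of 6 preplacodal genes 4 fell, and all 7 genes of the neural crest and its border rose. Of 6 tested retinoic acid genes 5 fell and 1 rose, and of 2 tested mesendoderm genes 1 rose and 1 fell. In bulk RNA, fewer cells of a type and less RNA per cell cannot be told apart, and the part of these cell types in the Otx1 and Otx2 differences was not tested.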

How the data were processed

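Poly(A) RNA libraries of 16 groups, 2 each, were sequenced as paired-end reads, per the labels. The authors deposited 1 table of FPKM for 55492 genes, rounded to 2 decimals; the unit comes from the deposited table's name and values. STAR, Cuffdiff and mm10 are named in the submitters' processing notes, with no version or role. No column was left unmapped. Gene models were GENCODE M21 on GRCm38, matched by Ensembl identifier for 99.52% of rows; promoter sequences were not used.

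Library depth was read off the spacing of small FPKM values in 12515 single-transcript genes, where 90.24% to 93.01% of values lay within 0.2 of a whole fragment (40% by chance). A count of 3 fragments on Gbx1 corresponds to between 0.0171 and 0.0328 FPKM; such limits cover counting error only.

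Tests used limma 3.58.1 in R 4.3.3 (lmFit, contrasts.fit, eBayes with trend) on log2(FPKM + 1) for 16276 genes at 1 FPKM or more in at least 2 libraries, over all groups (16 residual degrees of freedom), two-sided, with Benjamini-Hochberg adjustment per comparison. The script was tested on simulated data. The comparisons were 20 between lines, 12 between days and 8 interactions, 2 of these added after the values were seen. Alternatives were a pseudocount of 0.1, no filter, a mean FPKM of at least 5, median-of-ratios rescaling, fits restricted to the groups in a comparison, a block on replicate number, and leaving out each library.

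Members and gene lists were chosen with earlier results of these data known. Genes named were the members, their 3 nearest patterns, Mettl3, genes overlapping a member, and up to 3 called genes per list with the largest change; Lmx1b, Fgf8, Crx, Axin2 and Il17rd were singled out for their role or size of change with the values in view. Some genes the rule names are not reported here.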

Additional observations from a re-analysis of the deposited data

Results flagged for a closer look

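The interaction tests below asked whether the difference between lines at a day differed from that at an earlier day, and 18 of the 24 tested for Otx1, Otx2 and Gbx2 passed the threshold (limma, Benjamini-Hochberg adjusted p under 0.05), beside 34.8% to 57.4% of all tested genes in these comparisons. For KO against WT, the Otx1 difference on days 2, 4 and 6 exceeded that of day 0 by 0.18, 1.17 and 2.72, and that of day 6 exceeded day 4 by 1.55. Otx1 was near the counting floor at day 0 in every line. Its values against day 0, here and for Dex below, therefore largely repeated the later differences. Relative to day 0, the Otx2 difference had changed by -0.17 on day 2, by -0.10 on day 4 and by 0.81 on day 6, and it changed by 0.91 between days 4 and 6. The day 2 value was -0.10 without WT day 0 replicate 2 and -0.24 without replicate 1, and the day 4 value -0.033 without WT day 0 replicate 2. The Gbx2 difference changed from day 0 by -0.47 at day 2 and 0.49 at day 4, and by -0.50 between days 4 and 6.

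For Dex against no Dex, the Otx1 difference exceeded that of day 0 by 1.74 at day 4 and changed by -1.78 between days 4 and 6. Its Otx2 counterpart moved from day 0 by -0.34 on day 2, -0.12 on day 4 and -0.52 on day 6, and by -0.40 between days 4 and 6. The Gbx2 difference changed from day 0 by -0.45 at day 6, or by -0.29 without Dex day 6 replicate 1 and -0.61 without replicate 2. The contrasts of day 6 with day 4 were added after the values were seen, and those with day 0 include stem cells whose Dex label the protocol does not describe.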

How the results depend on the processing

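Otx1 at days 4 and 6 in KO against WT, Otx1 at day 4 with Dex, and Otx2 at day 6 in each comparison kept direction and call under every alternative run, as did the Gbx2 fall by day 4. Calls that moved were of Gbx2 and of small Otx1 and Otx2 differences, and the cause was not tested; after day 2 depth leaves few Gbx2 fragments. Same-numbered libraries were not paired: over 120 pairs of groups the correlation of their deviations ran from -0.126 to 0.152 with a median of 0.0. With the replicate number as a replicate block, Otx2 in the fusion without Dex against KO at day 0 (-0.072) lost its call (limma adjusted p = 0.0514), and no other member call changed; over all genes the calls at day 6 in KO against WT went from 10591 to 10558. Rescaling moved the median over all tested genes by more than 0.1 in 1 comparison, the Dex difference at day 2 against day 0, from -0.12 to -0.010.

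Values that crossed the threshold or changed sign follow, as differences in log2(FPKM + 1). With a pseudocount of 0.1, calls were lost for Gbx2 at day 0 in KO against WT (-0.34), at days 0 and 2 in the fusion without Dex against KO (0.21, 0.26), at day 2 with against without Dex (0.30) and at day 2 with Dex against WT (-0.41), and gained for Gbx2 at day 4 in KO against WT (0.44), for Otx1 at day 0 in the fusion without Dex against WT (-0.33), for Otx1 at day 2 with against without Dex (-0.36) and for its change from day 0 (-0.54). After median-of-ratios rescaling, Otx2 in KO against WT was called at day 2 (-0.14) and turned to -0.066 at day 4, turned to 0.041 in the fusion without Dex against KO at day 0, and lost its call with against without Dex at day 2 (-0.0064) and in the change from day 0 to day 4 (-0.032). In the fusion without Dex against WT it gave 0.19 for Otx2 at day 0, now called, 0.043 at day 2, no longer called, and reversed Otx2 at day 4 (-0.018) and Gbx2 at day 0 (0.0047). Without the filter, calls were lost for Otx2 in the fusion without Dex against KO at day 0 (-0.072), Gbx2 in the same comparison at day 2 (0.21), Gbx2 in KO from day 4 to day 6 (-0.18), and the Otx2 changes from day 0 to day 4 in KO against WT (-0.099) and with against without Dex (-0.12). In fits of the compared groups alone, calls were lost for Otx2 at day 0 in KO against WT (0.14) and in the fusion without Dex against KO (-0.072), for Gbx2 in the latter at day 2 (0.21), with against without Dex at days 2 and 6 (0.25, -0.29) and its change from day 0 to day 6 (-0.45), with Dex against WT at days 2 and 6 (-0.35, -0.23), and for the KO against WT changes from day 0 of Otx1 to day 2 (0.18) and of Otx2 to days 2 and 4 (-0.17, -0.099), and gained for Gbx2 at day 0 with against without Dex (0.16) and without Dex against WT (-0.12). Over all genes these smaller fits called 3357 in place of 7849 in KO against WT at day 0, 3941 in place of 6027 and 2284 in place of 4339 at days 2 and 4 in the fusion without Dex against KO, and 4342 in place of 8106 and 2603 in place of 4782 with Dex against WT at days 0 and 2. With a mean FPKM of at least 5, fewer genes were tested: in 10 of the 12 day-to-day steps the calls fell by over 1.5 times, for example from 10862 to 7127 in WT from day 4 to day 6. Fewer list genes were tested, and the calls at day 6 in KO against WT were 1 of the eye field, 3 of the midbrain and isthmus and 6 of the diencephalon and dorsal midbrain, and with against without Dex 1, 3 and 5.

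Leaving out each library in turn, the lone library assumed to vary like the other groups, gave these lowest and highest values where a call or sign moved. In KO against WT, Otx1 at day 0 ran from -0.074 to 0.0065, the Otx1 change from day 0 to day 2 from 0.14 to 0.22 and the Otx2 change from day 0 to day 4 from -0.17 to -0.033. In the fusion without Dex against KO, day 0 values ran from -0.060 to 0.020 for Otx1, -0.080 to -0.063 for Otx2 and 0.19 to 0.23 for Gbx2, and Gbx2 at day 2 from 0.18 to 0.24. With against without Dex, Otx1 at day 0 ran from -0.0066 to 0.061, Gbx2 at day 2 from 0.20 to 0.29 and at day 6 from -0.45 to -0.13, the Otx2 change from day 0 to day 4 from -0.13 to -0.10 and the Gbx2 change from day 4 to day 6 from -0.38 to -0.056. Otx2 at day 0 in the fusion without Dex against WT ran from -0.00078 to 0.13. With Dex against WT, day 2 values ran from -0.036 to 0.012 for Otx1 and -0.0027 to 0.026 for Otx2, and Gbx2 from -0.072 to 0.038 at day 4 and -0.39 to -0.067 at day 6. Between days, Otx1 from day 0 to day 2 ran from 0.12 to 0.14 in WT and 0.12 to 0.17 with Dex, and Gbx2 from day 4 to day 6 from -0.22 to -0.15 in KO and -0.055 to 0.27 with Dex. Calls held but values moved by over 1.5 times for Otx2 in KO against WT at day 0 (0.071 to 0.20) and its change to day 2 (-0.24 to -0.10), and for the Gbx2 Dex change from day 0 to day 6 (-0.61 to -0.29). The log2 Otx2 to Gbx2 ratio moved beyond the duplicates' SD in 15 of 16 groups with a pseudocount of 0.1 and in 6 after rescaling, with no change of sign.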
